A study of Schizosaccharomyces pombe with 12 samples.

Results

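Of the genes by which fission yeast takes up hexoses and makes or releases glucose, 8 were examined: *fbp1*, *inv1*, *ght1*, *ght3*, *ght4*, *ght5*, *ght6* and *ght8*. They were taken by gene symbol, and each was measured by 1 probe set of its own, so that the set holds 8 of the 4875 *S. pombe* probe sets analysed. The arrays compared *rpb1-12XCTD* cells, in which the CTD of the largest RNA polymerase II subunit is cut to 12 wild-type heptad repeats, with *rpb1-12XS2ACTD* cells, whose 12 repeats carry alanine in place of serine 2. Both strains therefore carry a shortened CTD, both *rpb1* alleles are marked with *ura4*, both strains carry *ura4-D18* and *leu1-32*, and no strain with a full-length CTD was among the arrays. Cultures in YES medium at mid-log phase received 0.5 µM LatA (latrunculin A, which blocks actin filament assembly) or its solvent DMSO for 3 h. Each of the 4 groups held 3 biological replicates on 3 arrays, which makes 12 arrays. The study used them to ask whether loss of serine 2 phosphorylation alters transcription selectively, with and without LatA.

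Glucose is the preferred carbon source of *S. pombe*, and YES supplies it in plenty. While glucose is present, the cAMP-dependent kinase Pka1p and the zinc finger repressor Scr1p hold down genes for other carbon sources. When glucose runs out, or when the stress MAP kinase Sty1p is active, the Atf1p-Pcr1p and Rst2p activators turn on *fbp1*, which is the classic reporter of this switch. The *ght* genes encode a family of hexose transporters of the plasma membrane that differ in affinity and in the sugar they prefer.

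A deposited value is a log2 intensity after RMA (robust multi-array analysis), shifted so that the median of each gene over the 12 arrays is 0. A value thus places an array against the other arrays for the same gene, and says nothing of the level of a gene against another gene. Differences were tested with limma, in which the means of the 4 groups were fitted to the 12 arrays together, and are given in log2 with the standard error (SE) of the fit. A change counted as called when its p, adjusted over the 4875 probe sets by the Benjamini-Hochberg method, was under 0.05 and its fold change over 1.5. Intervals are 95% confidence intervals from the same fit, and were not adjusted for the number of genes. Arrays have no read depth, and the precision of each value rests on 3 replicates. As the arrays carry RNA of whole cultures, fewer cells that express a gene and less RNA per cell cannot be told apart.

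The replicates varied in ways that bear on these genes. The standard deviation (SD) between replicates, as a median over the 8 genes, was 0.38 log2 with DMSO and 0.19 with LatA in *rpb1-12XCTD*, and 0.22 and 0.12 in the mutant. The same medians over all probe sets were 0.20, 0.068, 0.097 and 0.078, so that the 8 genes were noisier than a typical gene in each group. Replicate 2 was the lowest of its group in 23 of 32 cases (8 genes in 4 groups). By group this held for 6, 4, 7 and 6 of the 8 genes in the order given above, while the array held the lowest value for 43.4%, 22.9%, 37.5% and 38.4% of all probe sets. What the replicate number marks is not stated in the sources used here, and its part in the results was not tested beyond the fits with that number as a block.

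**Figure D1:**
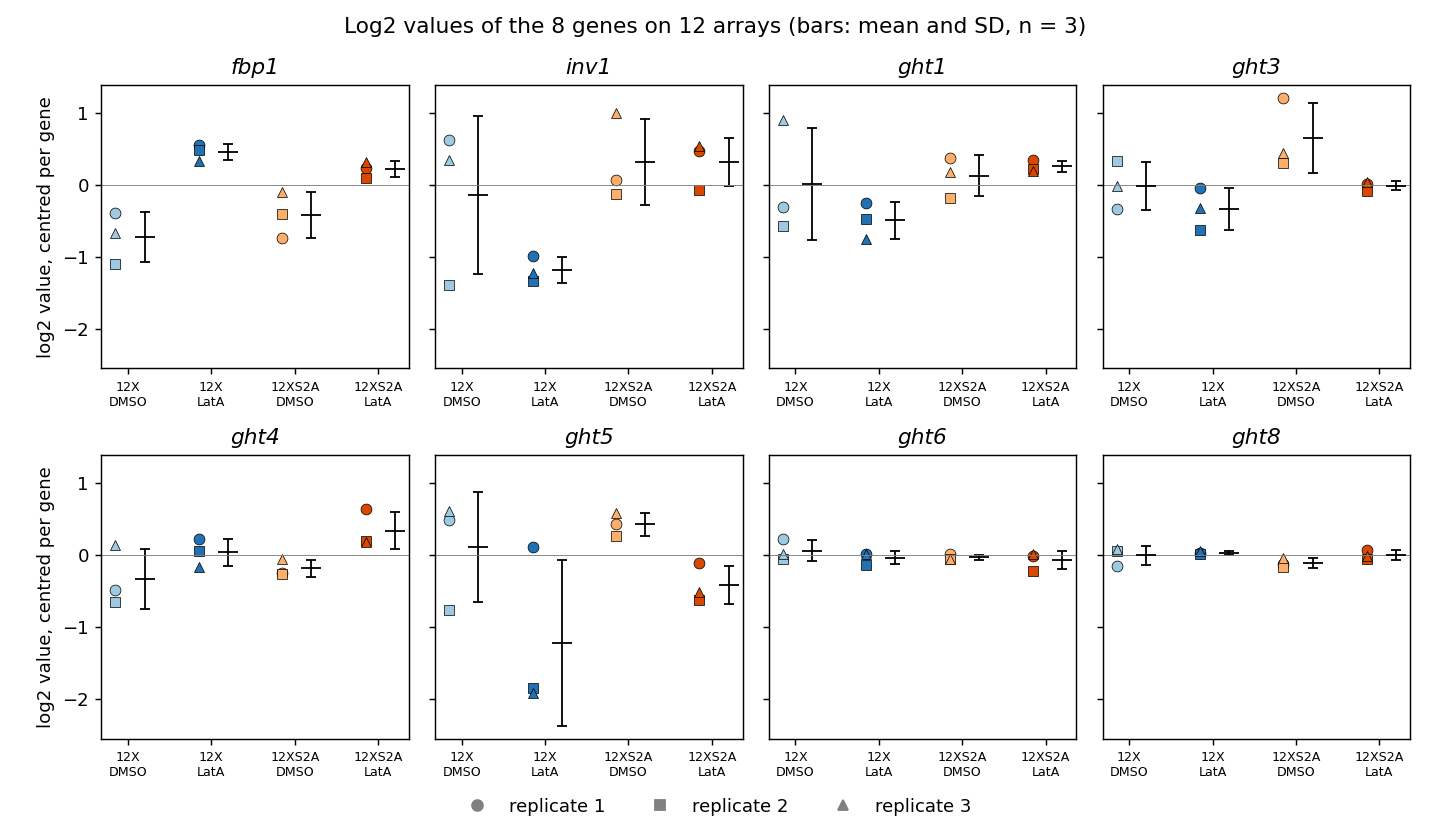
Deposited log2 values (vertical axis, median of each gene set to 0) of the 8 genes in the 4 groups (horizontal axis, with 12X for *rpb1-12XCTD* and 12XS2A for *rpb1-12XS2ACTD*), with a symbol for each replicate and a bar for the mean and SD of n = 3. *fbp1* lay higher on all LatA arrays than on all DMSO arrays of the same strain, the mean of *inv1* was lowest with LatA in *rpb1-12XCTD*, and *ght6* and *ght8* stayed within ranges of 0.44 and 0.26 log2.

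With LatA, *fbp1* rose in both strains, *ght3* fell in *rpb1-12XS2ACTD*, and no other gene of the 8 was called in either strain. In *rpb1-12XCTD* this makes 1 of 8 genes called, where 13.2% of all probe sets were called. In *rpb1-12XS2ACTD* it makes 2 of 8, where 11.5% of all were called. The groups did not overlap for 1 of the 8 genes in *rpb1-12XCTD* (43.0% of all probe sets) and for 4 of the 8 in *rpb1-12XS2ACTD* (56.8% of all). The median LatA effect of the 8 genes was −0.21 log2 in *rpb1-12XCTD* and 0.056 in *rpb1-12XS2ACTD*, beside 0.098 and −0.0086 over all probe sets. A share of calls near that of all probe sets is no result about the set, and the genes are therefore described singly below, by role.

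*fbp1* encodes fructose-1,6-bisphosphatase, the enzyme that commits carbon to gluconeogenesis. In *rpb1-12XCTD* it stood at −0.40, −1.10 and −0.67 with DMSO and at 0.56, 0.49 and 0.34 with LatA. In *rpb1-12XS2ACTD* it stood at −0.74, −0.41 and −0.097 with DMSO and at 0.24, 0.097 and 0.32 with LatA. In both strains every LatA array therefore lay above every DMSO array, and the DMSO arrays were spread more widely than the LatA arrays. The rise with LatA was 1.18 log2 in *rpb1-12XCTD* (SE 0.18, 2.27 fold, adjusted p = 0.00075 from limma) and 0.63 in *rpb1-12XS2ACTD* (SE 0.18, 1.55 fold, adjusted p = 0.0215). Without any 1 array, the first rise ran from 1.00 to 1.35 and was called each time. By the methods' test, the gene-specific test of the study with equal variances, neither rise passed (adjusted p = 0.0654 and 0.0787). The second ran from 0.47 to 0.79 and lost its call without 4 of the arrays of its own strain: 0.47 without *rpb1-12XS2ACTD* DMSO replicate 1 (adjusted p = 0.0781), 0.64 without DMSO replicate 2 (0.0530), 0.62 without LatA replicate 1 (0.0592) and 0.58 without LatA replicate 3 (0.0732).

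The order of the 4 group means of *fbp1* was DMSO-treated *rpb1-12XCTD* (−0.72 ± 0.35, SD, n = 3), DMSO-treated *rpb1-12XS2ACTD* (−0.42 ± 0.32), LatA-treated *rpb1-12XS2ACTD* (0.22 ± 0.11) and LatA-treated *rpb1-12XCTD* (0.46 ± 0.11). The DMSO neighbours overlapped and differed by 0.31 (SE 0.18, adjusted p = 0.425). The LatA neighbours did not overlap, with the highest *rpb1-12XS2ACTD* array at 0.32 and the lowest *rpb1-12XCTD* array at 0.34, and differed by −0.24 (SE 0.18, adjusted p = 0.473), which did not pass the test. The interaction, by which the LatA effect in the mutant exceeds that in *rpb1-12XCTD*, was −0.55 (SE 0.26, interval −1.12 to 0.019, adjusted p = 0.457). A smaller rise of *fbp1* in the mutant was therefore not shown. Over the 12 arrays the 3 named genes whose values followed *fbp1* most closely, of 3907, were *atg22* (Pearson r = 0.98), SPAC1687.07 (0.97) and *rga5* (0.97). These r describe 12 arrays that fall into 4 groups and share their RNA between genes, so that they carry no p.

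*inv1* encodes the secreted invertase that splits sucrose, and Scr1p represses it in glucose. Of the 8 genes it showed the largest difference between strains, on the LatA arrays. On the LatA arrays *inv1* stood at −0.98, −1.34 and −1.23 in *rpb1-12XCTD* and at 0.47, −0.071 and 0.54 in *rpb1-12XS2ACTD*, so that the strains lay apart by more than the spread of either. The DMSO arrays showed no such order. They stood at 0.63, −1.40 and 0.35 in *rpb1-12XCTD*, where replicate 2 was lower than the LatA arrays, and at 0.071, −0.13 and 1.00 in *rpb1-12XS2ACTD*.

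With LatA the mean of *inv1* was higher in *rpb1-12XS2ACTD* than in *rpb1-12XCTD* by 1.5 log2 (SE 0.46, 2.82 fold, interval 0.49 to 2.50), the 13th largest difference of the 4875 in size. It did not pass the test (adjusted p = 0.0787 from limma). The SE of this fit is shared by the 4 groups, and the SD of *inv1* was 1.10 and 0.60 in the DMSO groups against 0.18 and 0.33 in the LatA groups. In a fit of the 6 LatA arrays alone the SE was 0.17 and the adjusted p = 0.00209. The methods' test on the same 6 arrays gave an adjusted p = 0.0366, and limma with array weights one of 0.00206. In these 2 groups same-numbered replicates deviated together, and with the number as a block in the fit of the LatA arrays the adjusted p was 0.00161. In the fit of all arrays the adjusted p was 0.0408 when DMSO replicate 1 of *rpb1-12XCTD* was left out, 0.0180 when replicate 2 of that group was, and between 0.0691 and 0.234 without any other array. The size of the difference ran from 1.38 to 1.69.

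No change of *inv1* with LatA within a strain passed the test. In *rpb1-12XCTD* the LatA effect was −1.04 (SE 0.46, adjusted p = 0.0982), and DMSO replicate 2 was the lowest of the 12 arrays. Without that array the effect was −1.67 and called (adjusted p = 0.00329), and without DMSO replicate 1 it was −0.66 (adjusted p = 0.281). It was also called with the replicate number as a block (adjusted p = 0.0458). In *rpb1-12XS2ACTD* the group means were 0.31 with both treatments, and the interval of the difference ran from −1.01 to 1.01. The interaction was 1.04 (SE 0.65, interval −0.38 to 2.46, adjusted p = 0.552), so that a different response of *inv1* in the 2 strains was not shown, although it is the 25th largest interaction in size. Leaving out DMSO replicate 1 of *rpb1-12XCTD* gave 0.66, and leaving out replicate 2 of that group gave 1.67.

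*ght5* encodes a high-affinity glucose transporter on which growth in low glucose depends, and Scr1p represses it. In *rpb1-12XCTD* its values were 0.49, −0.76 and 0.62 with DMSO, against 0.11, −1.85 and −1.92 with LatA. In *rpb1-12XS2ACTD* they were 0.43, 0.27 and 0.58 with DMSO and −0.11, −0.62 and −0.51 with LatA. All LatA arrays of *rpb1-12XS2ACTD* lay below its DMSO arrays. In *rpb1-12XCTD* the groups overlapped, since LatA replicate 1 stayed near the DMSO arrays while the other LatA replicates held the lowest values of any of the 8 genes.

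The LatA effect on *ght5* was −1.33 log2 in *rpb1-12XCTD* (SE 0.50, interval −2.42 to −0.24, adjusted p = 0.0567 from limma) and −0.84 in *rpb1-12XS2ACTD* (SE 0.50, interval −1.93 to 0.25, adjusted p = 0.218). Neither was called. Without *rpb1-12XCTD* LatA replicate 1 the first was −2.0 (adjusted p = 0.00223), and without *rpb1-12XCTD* DMSO replicate 2 it was −1.77 (adjusted p = 0.0247). It was −0.98 without *rpb1-12XCTD* LatA replicate 3, so that the value rested on which LatA arrays were kept. In a fit of the 6 *rpb1-12XS2ACTD* arrays alone, the second effect had an SE of 0.15 and an adjusted p = 0.00499, and the methods' test gave one of 0.0333. The first effect was called with the replicate number as a block (adjusted p = 0.0344), after median centring (−1.43, 0.0412) and after quantile normalization (−1.37, 0.0342). Between strains the mean of *ght5* differed by 0.31 with DMSO (SE 0.50), mutant minus *rpb1-12XCTD*, and by −0.13 without *rpb1-12XCTD* DMSO replicate 2. With LatA it differed by 0.80 (SE 0.50, adjusted p = 0.371), or by 0.45 to 1.47 when each array was left out. The interaction was 0.49 (SE 0.70, adjusted p = 0.795).

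*ght1*, a transporter with a preference for glucose, stood at −0.30, −0.57 and 0.91 with DMSO and at −0.25, −0.48 and −0.75 with LatA in *rpb1-12XCTD*. In *rpb1-12XS2ACTD* they were 0.38, −0.18 and 0.18 with DMSO and 0.35, 0.23 and 0.20 with LatA. As for *inv1*, the strains did not overlap with LatA and overlapped with DMSO. With LatA the mean of *ght1* was higher in the mutant by 0.75 log2 (SE 0.31, 1.68 fold, interval 0.070 to 1.43), which did not pass the test (adjusted p = 0.175 from limma). The adjusted p was 0.0230 without *rpb1-12XCTD* DMSO replicate 3, whose value of 0.91 is the highest of the 12, 0.00650 in a fit of the LatA arrays alone and 0.00401 when the replicate number was a block in that fit. The LatA effect was −0.51 in *rpb1-12XCTD* (SE 0.31) and 0.13 in *rpb1-12XS2ACTD* (SE 0.31), neither called. When each array was left out, the first ran from −0.79 to −0.059, its value without *rpb1-12XCTD* DMSO replicate 3, and the second from −0.024 to 0.26. The interaction was 0.64 (SE 0.44, adjusted p = 0.574), and 0.19 without *rpb1-12XCTD* DMSO replicate 3.

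*ght3* encodes a transporter that takes up gluconate. Its values were −0.34, 0.33 and −0.017 with DMSO and −0.041, −0.63 and −0.32 with LatA in *rpb1-12XCTD*. In *rpb1-12XS2ACTD* they were 1.21, 0.31 and 0.45 with DMSO and 0.017, −0.085 and 0.036 with LatA. The mean was highest in the mutant with DMSO, where replicate 1 held the highest value of the 12 arrays, and the DMSO groups of the strains overlapped. In the mutant *ght3* fell with LatA by 0.67 log2 (SE 0.24, adjusted p = 0.0497 from limma), just past the threshold, and the groups did not overlap. The change was −0.39 without *rpb1-12XS2ACTD* DMSO replicate 1 (adjusted p = 0.168), and the call was lost without 9 of the 12 arrays in turn and under 6 other alternatives. In *rpb1-12XCTD* the change was −0.32 (SE 0.24, adjusted p = 0.319). With DMSO *ght3* was higher in the mutant by 0.67 (SE 0.24, interval 0.15 to 1.19), the only difference with DMSO among the 8 genes with an unadjusted p under 0.05, and its adjusted p = 0.214. That difference was 0.39 without *rpb1-12XS2ACTD* DMSO replicate 1 and 0.29 with array weights. The interaction was −0.35 (SE 0.33, adjusted p = 0.690), or 0.13 with array weights. The named genes closest to *ght3* over the 12 arrays were *mug68* (r = 0.92), SPBPB2B2.07c (0.91) and SPAC23C11.07 (0.89), again with no p.

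*ght4* is annotated as a hexose transporter. In *rpb1-12XCTD* it stood at −0.49, −0.65 and 0.13 with DMSO and at 0.22, 0.054 and −0.16 with LatA. In the mutant it stood at −0.25, −0.26 and −0.054 with DMSO and at 0.64, 0.19 and 0.18 with LatA. Like *fbp1*, it was higher with LatA in both strains by group means, but the groups overlapped in *rpb1-12XCTD*. The LatA effect was 0.37 log2 in *rpb1-12XCTD* (SE 0.19, adjusted p = 0.162 from limma) and 0.53 in *rpb1-12XS2ACTD* (SE 0.19, 1.44 fold, adjusted p = 0.0585), and neither was called. Without *rpb1-12XCTD* DMSO replicate 3, the high array among the DMSO replicates, the first was 0.61 and called (adjusted p = 0.0117). *fbp1*, *ght3* and *ght4* are on the study's list of stress response genes, and none of the 8 is on its lists of core environmental stress response genes.

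*ght6*, whose product favours fructose, and *ght8*, annotated as a hexose transporter, barely moved. *ght6* ran from −0.22 to 0.22 log2 and *ght8* from −0.17 to 0.085 over the 12 arrays. Their whole ranges of 0.44 and 0.26 lie under the median range of 0.68 over all probe sets, whereas those of the other 6 genes ran from 1.29 (*ght4*) to 2.54 (*ght5*). In the 4 comparisons the interval of the difference stayed inside 1.5 fold for both, from −0.30 to 0.17 for *ght6* and from −0.28 to 0.28 for *ght8*. For *ght6* these values do not tell an unchanged transcript from a signal too low to move, since levels are not kept, and the same holds for *ght8*. The 4 genes *ght6*, *ght5*, *ght8* and *ght1* lie close together on chromosome III in the RefSeq annotation. No protein-coding gene lies between *ght8* and *ght1*, 2 lie between *ght6* and *ght5*, and 4 between *ght5* and *ght8*. Neighbours thus differed in range, with *ght5* and *ght1* among the variable genes and *ght6* and *ght8* the 2 steadiest. All 8 probe sets carry the suffix of probes designed for 1 transcript. Cross-hybridization between these related transporter genes was not tested.

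**Figure D2:**
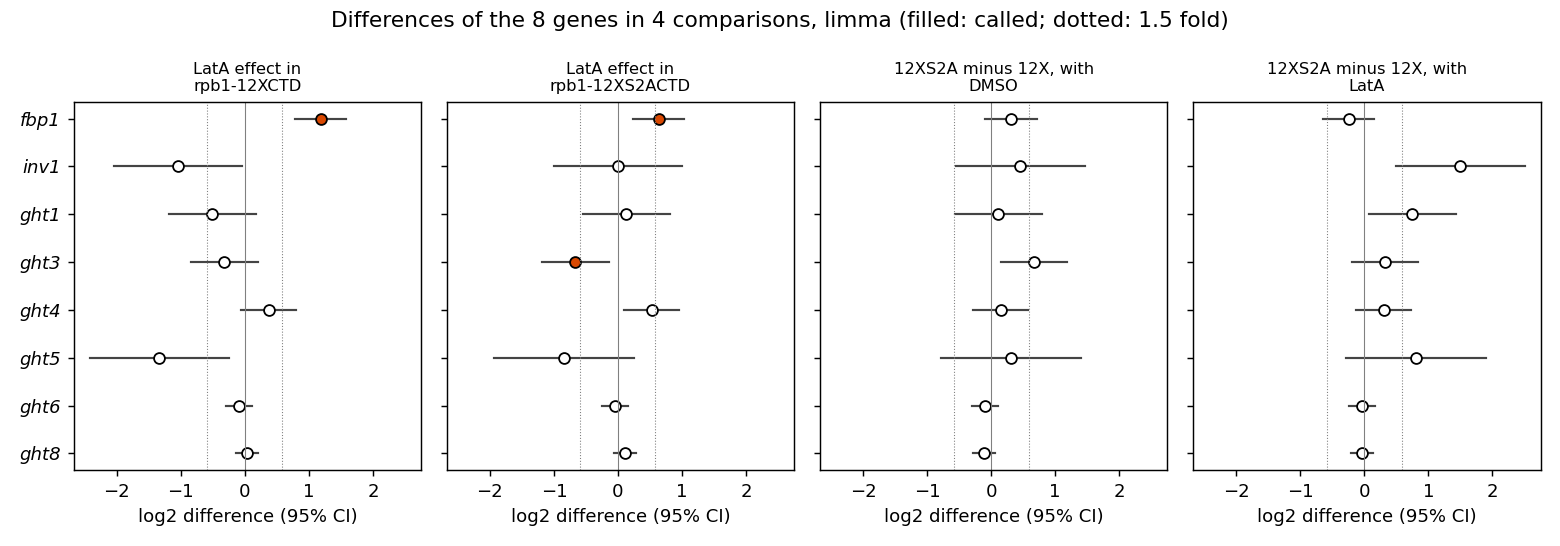
Log2 differences of the 8 genes (points, with bars for the 95% confidence interval of the limma fit) in the LatA effect of each strain and in *rpb1-12XS2ACTD* minus *rpb1-12XCTD* with each treatment. Filled points were called, and dotted lines mark 1.5 fold. The filled points are *fbp1* in both strains (1.18 and 0.63) and *ght3* in *rpb1-12XS2ACTD* (−0.67), and the *inv1* difference with LatA is 1.5 with an interval from 0.49 to 2.50.

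Between strains no gene of the 8 was called. With DMSO this was 0 of 8 by limma, where 0.862% of all probe sets were called, and 0 by the methods' test. An unadjusted p under 0.05 was reached by 1 of 8, beside 827 of all 4875 probe sets. The groups did not overlap for 0 of the 8 genes, beside 9.54% of all. With LatA it was 0 of 8 by limma, where 2.89% of all were called, and 1 by the methods' test (*inv1*), which called 3.12% of all. At an unadjusted p under 0.05 it was 2 of 8 (*inv1* and *ght1*), beside 1120 of all 4875 probe sets. The groups did not overlap for 3 of the 8 with LatA (47.7% of all), with *inv1* and *ght1* higher and *fbp1* lower in *rpb1-12XS2ACTD*. In a fit of the LatA arrays alone 2 of the 8, *inv1* and *ght1*, were called (4.82% of all), the same 2 with the replicate number as a block in that fit (5.01% of all), and with array weights 3, with *ght5* added at 1.24 log2 (adjusted p = 0.0182; 4.78% of all). The median difference of the 8 genes was 0.23 with DMSO and 0.31 with LatA, beside 0.064 and −0.045 over all probe sets. For the interaction 0 of 8 genes were called by limma (0.0205% of all) and 0 by the methods' test (0% of all). At an unadjusted p under 0.05 it was 0 of 8, beside 536 of all 4875 probe sets. The interaction and the strain comparisons share arrays with the LatA effects.

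The transporter genes outside the set gave a further view of the family. *ght2*, which also encodes a glucose transporter, had DMSO values of −0.51, −0.26 and −0.089 in *rpb1-12XCTD* and of −0.13, −0.25 and −0.29 in *rpb1-12XS2ACTD*. With LatA they were 0.089, 0.31 and 0.45, and 0.36, 0.18 and 0.33. Every LatA array lay above every DMSO array in both strains. The effect was 0.57 log2 in *rpb1-12XCTD* (SE 0.12, 1.48 fold, adjusted p = 0.00389 from limma) and 0.51 in *rpb1-12XS2ACTD* (SE 0.12, 1.43 fold, adjusted p = 0.00777). *ght2* thus passed the adjusted p in both strains and missed the fold threshold in both. In *rpb1-12XCTD* it was called with array weights (0.63) and without DMSO replicate 3 or LatA replicate 1 of that strain (0.67 each). Over all alternatives its adjusted p was at most 0.109 in *rpb1-12XCTD*, so that not every one passed, and at most 0.0324 in *rpb1-12XS2ACTD*. *ght7* did not pass in any comparison (adjusted p of 0.157 or more). *sut1*, also on the list of other sugar transporters, was higher with LatA by 0.66 in *rpb1-12XCTD* (SE 0.26, adjusted p = 0.0658 from limma). In *rpb1-12XS2ACTD* it was higher by 0.64 (SE 0.26, adjusted p = 0.0755). Neither was called, and its groups did not overlap in either strain (43.0% and 56.8% of all probe sets).

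Genes by which the cell senses glucose through cAMP were listed next. Of all probe sets, LatA raised 10.6% and lowered 2.58% in *rpb1-12XCTD*, and raised 6.13% and lowered 5.37% in the mutant. Of 11 genes on this list, *rpb1-12XCTD* had 4 that rose and 1 that fell, and the mutant 2 that rose and 0 that fell. *git5*, for the beta subunit of the G protein below the glucose receptor, rose by 0.83 log2 (SE 0.10, adjusted p = 0.000245 from limma) and 0.94 (SE 0.10, adjusted p = 0.000328). *cyr1*, for adenylate cyclase, rose by 0.75 and 0.68 (SE 0.11 each). *pka1*, for the catalytic subunit of the kinase, rose in *rpb1-12XCTD* by 0.63 (SE 0.11), or by 0.53 and not called after median centring of the arrays and by 0.47 and not called without *rpb1-12XCTD* DMSO replicate 2. *cgs1*, also on the list, rose there by 0.60 (SE 0.12), or by 0.51 and not called after median centring. With DMSO and LatA in *rpb1-12XS2ACTD* the means of *pka1* were −0.33 and 0.15. Those of *cgs1* were −0.40 and 0.14, and neither change reached 1.5 fold. The study's list of core environmental stress response genes raised by stress holds *git5*, *pka1* and *cgs1*, and *ntp1*, *tps1* and *gut2* named below. *gpa2*, for the alpha subunit of the G protein of *git5*, fell in *rpb1-12XCTD* by 0.95 (SE 0.11, adjusted p = 0.000208). Its means in *rpb1-12XS2ACTD* were 0.31 with DMSO and −0.15 with LatA, a fall short of 1.5 fold, and the groups did not overlap. The median of the list was 0.25 and 0.14. By the methods' test, which called 15 probe sets in all in *rpb1-12XCTD*, none of the list genes named here and below kept a call in that strain (adjusted p of 0.0539 or more). In *rpb1-12XS2ACTD* the genes named here and below that lost their call by that test were *eno102* (adjusted p = 0.0602), *gal1* (0.0690), *gal10* (0.0697) and *agl1* (0.0898).

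Of 15 genes that act on *fbp1* or on glucose repression, 1 was called in *rpb1-12XCTD* and 0 in *rpb1-12XS2ACTD*. In the latter 5 genes were higher and 3 lower by the adjusted p and missed the fold threshold. Of all 4875 probe sets, 846 were higher and 779 lower there by the adjusted p. In *rpb1-12XCTD* 7 of the 15 were higher and 2 lower by the adjusted p, beside 1332 and 406 of all probe sets. Of the 15 genes, 1 also passed the fold threshold. The called gene was *scr1*, the repressor itself, at 0.59 log2 (SE 0.12, adjusted p = 0.00283 from limma), just past 1.5 fold. Median centring gave 0.50 and quantile normalization 0.45, both short of 1.5 fold, and 0.48 without *rpb1-12XCTD* DMSO replicate 1. The medians of the list were 0.17 and 0.14. Of 11 glycolysis genes 0 were called in *rpb1-12XCTD*, where their differences ran from 0.032 to 0.22. There 2 of the 11 had an unadjusted p under 0.05, beside 2224 of all 4875 probe sets. In *rpb1-12XS2ACTD* 1 rose, *eno102*, which encodes an enolase, by 0.75 (SE 0.15). *eno102* was also higher in *rpb1-12XS2ACTD* than in *rpb1-12XCTD* with LatA by 0.79 (SE 0.15, adjusted p = 0.0177), a call lost without any 1 of 4 LatA arrays (*rpb1-12XCTD* replicates 1 and 2, *rpb1-12XS2ACTD* replicates 1 and 3, adjusted p up to 0.0768) and by the methods' test (0.0704).

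Genes for the use of other carbon sources moved in both directions. Of 15 probe sets of 13 genes, LatA raised 3 and lowered 1 in *rpb1-12XCTD*, and raised 4 and lowered 2 in the mutant, to be read against the shares of all probe sets given above (10.6% and 2.58%, and 6.13% and 5.37%). *gal10*, for a UDP-glucose 4-epimerase, rose by 1.75 log2 (SE 0.22, adjusted p = 0.000297 from limma) and 0.98 (SE 0.22). *dak2*, for a dihydroxyacetone kinase, rose by 0.76 and 1.04 (SE 0.17 each), the first of these 0.54 and not called without *rpb1-12XCTD* DMSO replicate 1. *adh4*, for an alcohol dehydrogenase, fell by 1.24 and by 0.98 (SE 0.17 each). *gal1* fell in *rpb1-12XS2ACTD* by 0.66. Its call was lost without any 1 of 4 arrays and, in limma, with the replicate number as a block (adjusted p = 0.0513). In *rpb1-12XCTD* its difference of −0.43 was not called (adjusted p = 0.120 from limma). The alpha-glucosidase gene *agl1* rose by 0.90 in *rpb1-12XCTD* (SE 0.29, adjusted p = 0.0345), and its call was lost without any 1 of 5 *rpb1-12XCTD* arrays, all but DMSO replicate 1 (lowest 0.63 without DMSO replicate 2). In *rpb1-12XS2ACTD* *agl1* rose by 0.94, a call lost without any 1 of 4 arrays (lowest 0.71). *mal1*, for a maltase, lies next to *ght4* and rose in *rpb1-12XS2ACTD* by 1.03 (SE 0.24). Its difference of 0.62 in *rpb1-12XCTD* was not called (adjusted p = 0.0666 from limma). *gut2*, for glycerol-3-phosphate dehydrogenase, was higher in *rpb1-12XS2ACTD* with LatA by 1.19 (SE 0.23, adjusted p = 0.0192), and the adjusted p was 0.0511 to 0.0768 without any 1 of the 6 LatA arrays.

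Of the 5 genes of the pentose phosphate pathway and of trehalose metabolism named here, 2 rose and 0 fell in each strain, where 10.6% and 6.13% of all probe sets rose. *ntp1*, for the neutral trehalase, rose by 1.05 log2 in *rpb1-12XCTD* and 1.06 in *rpb1-12XS2ACTD* (SE 0.17 each). *tpp1*, for trehalose-6-phosphate phosphatase, rose by 0.60 in *rpb1-12XCTD*, and by 0.51 and not called after median centring and by 0.50 and not called without *rpb1-12XCTD* DMSO replicate 2. Its means in *rpb1-12XS2ACTD* were −0.31 with DMSO and 0.24 with LatA, a rise short of 1.5 fold. *tps1*, for the synthase of the same pathway, rose by 0.73 in *rpb1-12XS2ACTD* (SE 0.16). In *rpb1-12XCTD* *tps1* was higher with LatA by 0.50 (SE 0.16, adjusted p = 0.0343 from limma), short of 1.5 fold, and the groups overlapped. The medians were 0.50 and 0.55. With DMSO 0 genes of any of these lists differed between strains by limma, and the methods' test called 0 of all probe sets there. An unadjusted p under 0.05 was reached by 3 of 15 probe sets of the *fbp1* control list, 3 of 15 of the other carbon sources and 1 further transporter (*ght7*). It was reached by 827 of all 4875 probe sets. *gal10* and *gal1* were among the former, higher in the mutant by 1.01 and 0.74 (adjusted p = 0.0681 and 0.126 from limma).

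**Figure D3:**
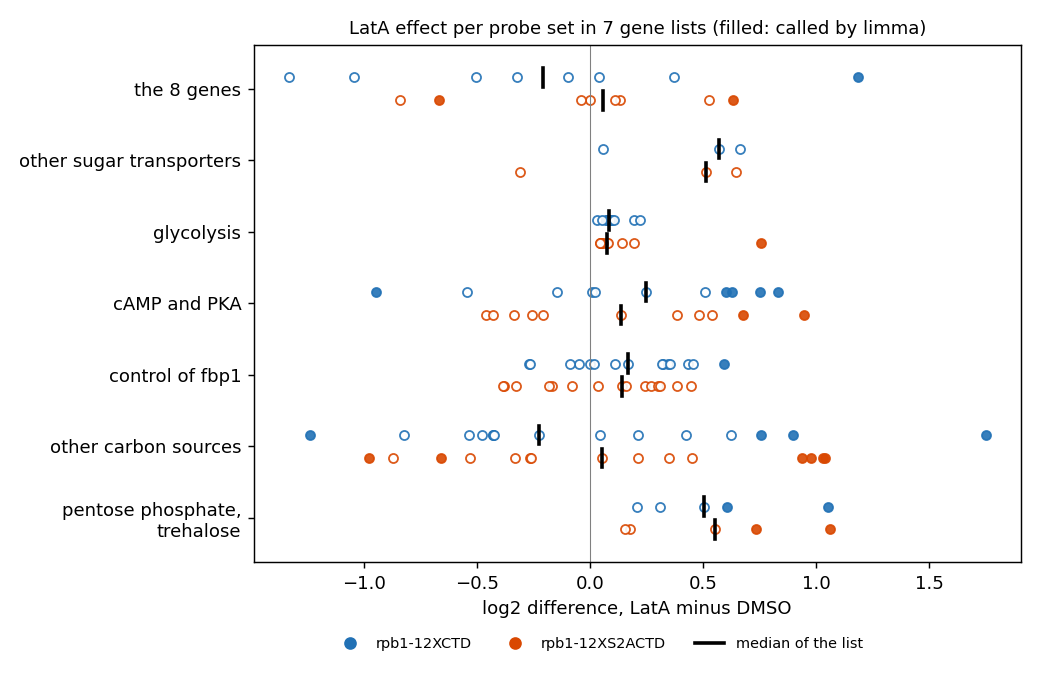
Log2 difference between LatA and DMSO arrays (horizontal axis) of each probe set in the 8 genes and in 6 lists of related genes (rows), for *rpb1-12XCTD* (blue) and *rpb1-12XS2ACTD* (orange). Filled points were called by limma and black bars are list medians, which lie between −0.23 and 0.57 in *rpb1-12XCTD*. The glycolysis genes lie close to 0 apart from *eno102* in *rpb1-12XS2ACTD*, while the genes for other carbon sources reach from −1.24 (*adh4*) to 1.75 (*gal10*) in *rpb1-12XCTD*.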

How the data were processed

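RNA of 12 cultures, 3 replicates in each of 4 groups, was hybridized to Affymetrix Yeast Genome arrays. The authors normalized the raw files by RMA in GeneSpring, and the deposited log2 values have a median of 0 for every probe set over the 12 arrays, by a step that is not given in the sources used here. No value was missing, and no further normalization was applied. Probe sets were named by the annotation of the array (2863) and otherwise by the study's supplementary gene list (1045), with symbols from RefSeq. The 967 without a single name stayed in every test.

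limma 3.58.1 in R 4.3.3 was used, with names and figures prepared in Python 3.11.15. The thresholds follow the study's methods. The methods' test is their gene-specific test with Benjamini-Hochberg adjustment. Whether replicate numbers pair the samples was read from the correlation of deviations from the group means. All 3 same-numbered pairs of the LatA-treated strains exceeded 0.1 (0.20 to 0.34), which no other comparison showed, so those groups were also fitted with the number as a block. The members, lists and alternatives were chosen with earlier results of these data known. All 8 members are named, and from each list up to 4 called genes with the largest difference in a comparison, with *cgs1* and *gal1* added. The *ght2* and *ght7* values were added as family members, and those of *sut1* as the remaining gene of their list. The 3 most correlated named genes were taken for *fbp1* and for each called member. A planned search of promoters for motifs was not run.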

Additional observations from a re-analysis of the deposited data

How the results depend on the processing

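Calls of the 8 genes differed between the alternatives, some of which also changed the log2 differences. The difference between strains with DMSO and the interaction gave 0 called genes under every alternative, where up to 5.33% and 1.83% of all probe sets were called. For the difference between strains with LatA the count went from 0 to 2 in a fit of the compared groups alone (4.82% of all). It was 1 by the methods' test (3.12% of all), 3 with array weights (4.78%) and 2 after quantile normalization (5.44%). For LatA in *rpb1-12XCTD* it went from 1 to 0 by the methods' test, 2 after median centring and 4 after quantile normalization (*inv1*, *ght5* and *ght1* were added). For LatA in *rpb1-12XS2ACTD* it went from 2 to 1 by the methods' test (*ght5*, with *fbp1* and *ght3* lost), 0 with array weights and 1 after quantile normalization (*fbp1*). It stayed at 2 in a fit of the compared groups alone (11.9% of all), where *ght5* took the place of *ght3*. With each array left out in turn the counts ran from 0 to 1, from 1 to 3 and from 0 to 2 in these 3 comparisons. The shares of all probe sets then ran from 0.718% to 3.88%, from 10.6% to 16.1% and from 10.1% to 12%. An alternative added after seeing the data left out DMSO replicate 3 of *rpb1-12XCTD* and DMSO replicate 1 of *rpb1-12XS2ACTD*. These 2 arrays had the lowest array weights of their groups (0.167 and 0.342). Without them the counts were 1, 2 and 0 (4.12%, 16.4% and 10.4% of all). With the replicate number as a block the 3 counts were 0, 3 and 1 (2.09%, 13.1% and 11.4% of all). In a fit of the LatA arrays alone with that block, also added after seeing the data, the count between strains was 2 (5.01% of all). Between the other groups compared, the correlation of same-numbered arrays passed 0.1 in 0 to 2 of 3 pairs. For the 2 treatments of *rpb1-12XS2ACTD* it ran from 0.074 to 0.23. Whether the numbers pair those samples was not tested. No called difference changed sign, and the cause of these shifts was not tested. The interaction of *ght3*, not called, was −0.35, or 0.13 with array weights. Scaling turned the sign of 3 small differences that were not called: *ght8* with LatA in *rpb1-12XCTD* (0.038, or −0.056 after median centring and −0.049 after quantile normalization), *ght1* between strains with DMSO (0.11, or −0.0089 after quantile normalization) and *ght6* between strains with LatA (−0.036, or 0.015). Quantile normalization also moved the median LatA effect of all probe sets in *rpb1-12XCTD* from 0.098 to −0.016.

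Over all probe sets the counts also moved by more than 1.5 times. With each array left out they ran from 3 to 201 between strains with DMSO (3 without replicate 2 or 3 and 201 without replicate 1 of the DMSO-treated mutant, 18 and 153 without replicates 1 and 3 of DMSO-treated *rpb1-12XCTD*), from 35 to 189 between strains with LatA (68 or fewer without any 1 of the 6 LatA arrays) and from 1 to 52 for the interaction (52 without *rpb1-12XCTD* DMSO replicate 3). They went from 42 to 0 (compared groups alone and methods' test), 87 (array weights), 15 (quantile) and 260 (without the 2 DMSO arrays) between strains with DMSO, and from 141 to 235, 233 and 265 (compared groups alone, array weights, quantile) and 273 (no fold threshold), or 244 in the blocked fit of the LatA arrays, with LatA. They went from 642 to 15 (methods' test) and 1738 (no fold threshold) for LatA in *rpb1-12XCTD*, from 561 to 1625 (no fold threshold) in *rpb1-12XS2ACTD*, and from 1 to 0 (methods' test, and trend and robust options), 19 (quantile) and 89 (without the 2 DMSO arrays) for the interaction.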
